A study of Mus musculus with 3 samples.

Results

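Potassium channel genes were read out in sorted cells of the mouse superior cervical ganglion, which holds the sympathetic neurons that serve the head. Their members were chosen by name: every gene symbol of the deposited expression table made of Kcn, further lower-case letters and a final number. This gave 92 of the 52550 genes of the table, all protein coding, and each was placed in 1 of 5 classes by its symbol: 40 voltage-gated, 15 inward rectifier, 14 two-pore and 8 calcium-activated pore-forming genes and 15 auxiliary subunits. The 3 libraries form 1 group, LepR+ cells, with no control group. The mice were males aged 10 weeks with the genotype LepRCRE::Ai32, which joins Cre recombinase at the leptin receptor gene to a Cre-dependent reporter, and live cells with the yellow reporter were taken by flow sorting. The protocol calls the animals LepReYFP mice, and the title names perineurial cells, which wrap nerves and ganglia. Cre marks a cell for good, so a cell that once used the gene stays labelled. The labels give 3 biological replicates, with the number of animals or cells per library not given. In such bulk samples, fewer cells of a type and less RNA per cell cannot be told apart.

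Potassium channels let potassium ions leave or enter cells along their gradient and so set the membrane potential. Voltage-gated channels open on depolarisation, inward rectifiers pass current best near or below the resting potential, two-pore channels carry background leak, and calcium-activated channels open when intracellular calcium rises. In peripheral ganglia and nerves, glial inward rectifiers are known for taking up the potassium that active neurons release, and Kv1 channels for lying along myelinated axons. Auxiliary subunits form no pore but change the gating or the delivery of the channels they bind.

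Reads on genes, recovered from the deposited values, numbered 8239037, 8038609 and 7721986 (replicates 1, 2 and 3). For 2759 genes the shortest fitting length was used, so these totals are the least that the values allow. Mitochondrially encoded genes took from 19.9% to 21.1% of the deposited expression. Levels are given as TPM, a scale of transcript abundance, which divides reads by gene length and by the library total, so that genes can be compared within a library. Lepr, the gene that carries Cre in these mice, stood at 363, 32.1 and 54.0 TPM. Of 12 perineurial marker genes, 4 lay above 1 TPM by limma's test, 1 below and 1 had no read, and their summed level was 530, 770 and 467 TPM. Of 12 satellite glial and Schwann cell genes, 10 lay above 1 TPM and none below, with sums of 32970, 27704 and 30109 TPM. The sums of 10 fibroblast genes were 4672, 6303 and 6719 TPM, those of 10 endothelial genes 323, 430 and 322 TPM, and those of 10 mural cell genes 480, 347 and 104 TPM. For sympathetic neurons, 12 genes summed to 77.7, 83.6 and 50.7 TPM, with 8, 2 and 4 of them at 0 reads, and 10 macrophage genes to 2.43, 85.4 and 103 TPM. The label of the sort thus covered libraries in which glial and fibroblast markers were the highest of these lists, and the share of each cell type in the potassium channel levels was not tested.

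A few potassium channel genes carried most of the signal. Of the 92 genes, 81 had a read in some library and 11 had none. The level reached 1 TPM in every library for 11 genes, in 1 or 2 libraries for 15 and in no library for 55 more with a read. These 11 include Kcna1, Kcna2, Kcna6 and Kcnh8 among the voltage-gated genes, Kcnj10, Kcnj13 and Kcnj16 among the inward rectifiers, Kcnn2 and Kcnn4 among the calcium-activated genes and the auxiliary gene Kcnip3. All 11 made up 92.5% ± 6.86 (SD, n = 3) of the summed TPM of all 92. Their share was 84.9%, 94.3% and 98.2% in replicates 1, 2 and 3. They were picked by their level in these same libraries, so a high share is partly built in. The same 11 had at least 10 reads in every library. They are 13.6% of the 81 with a read, beside 23.7% of all 27396 genes with a read and 33.6% of the 17136 protein-coding ones.

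Each gene's mean log2(TPM + 1) was compared with its value at 1 TPM by limma's moderated test. Of 81 potassium channel genes, 9 (11.1%) lay above that level, beside 16.2% of all genes tested, and 32 (39.5%) lay below, beside 13.6%. Among the 17136 protein-coding genes tested, 4068 lay above and 2560 below. The 9 are Kcna1, Kcna2, Kcna6, Kcnh8, Kcnj10, Kcnj13, Kcnj16, Kcnn2 and Kcnip3. Without replicate 3, 14 genes were at 1 TPM or more in both other libraries; leaving out a library can only keep or raise this count. The limma calls depended on the libraries. Without replicate 1 or without replicate 2 limma called 0 members and 0 of all 27396 genes above. At an unadjusted limma p under 0.05, 8 and 9 members lay above there. Without replicate 3 limma called 4 members and 8.89% of all genes tested above. The calls below rested on few reads, since 50 of the 92 genes had 1 to 10 reads over all libraries, and their count fell to 0 under several settings. In those settings 0% to 0.0669% of all genes tested were called below. They also depended on exon length: with 1 read each, Kcnmb3 (1715 bases) was called neither way and Kcnf1 (4789 bases) below. The shares were not matched for length, so the 39.5% cannot be read as a trait of the family.

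**Figure D1:**
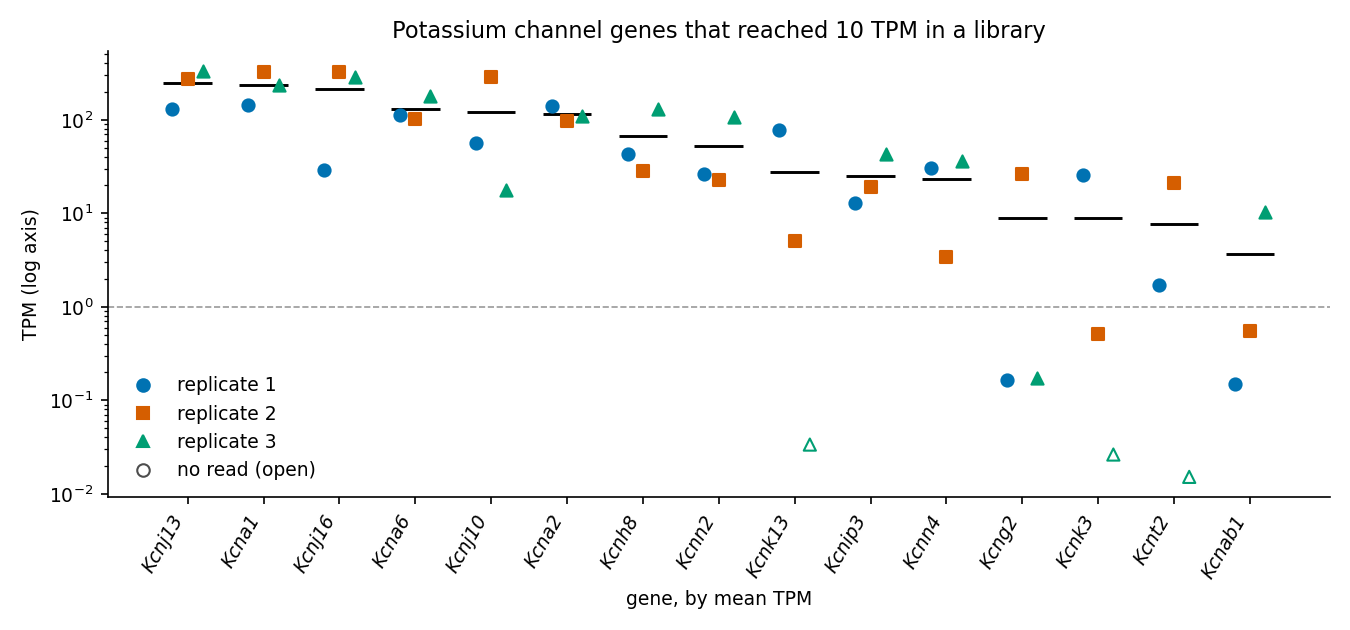
TPM of 15 potassium channel genes that reached 10 TPM in a library, on a log axis, with 1 point per library, a bar at the mean of the 3 libraries and a dashed line at 1 TPM. The 3 libraries of Kcna2 sit between 97.6 and 140 TPM, whereas Kcnk13, Kcnk3 and Kcnt2 have an open symbol in replicate 3, where they had no read and the plotted value holds only the 0.25 read added to every gene.

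For 6 of the 9 genes called above, the coding strand around the selectivity filter is shown, the short stretch that lets potassium pass and holds back sodium, so that the Kv1 genes, the inward rectifiers and Kcnh8 can be compared where they do the same job. Each line gives 45 bases of GRCm38 from 5′ to 3′, with the 15 bases of the filter in capitals, found as codons for threonine or serine, then valine or isoleucine, glycine, tyrosine or phenylalanine, and glycine.
Kcna1 (chr6:126642213-126642257, reverse strand): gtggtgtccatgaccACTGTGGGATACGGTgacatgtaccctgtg
Kcna2 (chr3:107105209-107105253, forward strand): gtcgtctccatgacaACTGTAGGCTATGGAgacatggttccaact
Kcna6 (chr6:126738632-126738676, reverse strand): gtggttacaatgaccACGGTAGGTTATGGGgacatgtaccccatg
Kcnj13 (chr1:87389006-87389050, reverse strand): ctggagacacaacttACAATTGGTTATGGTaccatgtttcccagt
Kcnj16 (chr11:111024889-111024933, forward strand): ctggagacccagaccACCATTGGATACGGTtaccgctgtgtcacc
Kcnh8 (chr17:52877976-52878020, forward strand): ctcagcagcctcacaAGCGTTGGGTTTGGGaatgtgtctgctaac
Aligned on the filter, Kcna1 shared 35 of 45 bases with Kcna6 and 31 with Kcna2, and Kcna2 shared 31 with Kcna6. Kcnj13 shared 27 bases with Kcnj16. Between a Kv1 gene and an inward rectifier the shared bases numbered 21 to 26. Kcnh8 shared 19 to 23 bases with the other five and has a phenylalanine codon where they have a tyrosine codon. Kcna1 and Kcna6 share most bases of this stretch, but only 10 of the 15 filter bases, although their filter codons encode the same amino acids. Kcna1 shared 12 filter bases with Kcnj16, so shared filter bases do not follow the families here.

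Among voltage-gated genes, 3 Kv1 subunits stood out by level. Kcna1 (ENSMUSG00000047976.4, chr6:126640397-126646384), a low-threshold delayed rectifier, was at 142, 324 and 237 TPM in replicates 1, 2 and 3. Kcna2 (ENSMUSG00000040724.5, chr3:107101146-107115005), which can assemble with Kcna1 into mixed channels, was at 140, 97.6 and 110 TPM. Kcna6 (ENSMUSG00000038077.7, chr6:126708329-126740674), another delayed rectifier of the same family, was at 112, 101 and 180 TPM. All 3 genes exceeded 97 TPM in every library, and their highest library was 2.28, 1.44 and 1.78 times the lowest. In mean log2(TPM + 1) they lay 6.80 ± 0.31 (SE), 5.85 ± 0.20 and 5.996 ± 0.255 above the value at 1 TPM (limma, adjusted p = 0.00418, 0.00340 and 0.00386). Together they made 37.9% ± 7.07 (SD, n = 3) of the summed potassium channel TPM, 481 ± 75.0 TPM.

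Within libraries, Kcna1 exceeded Kcna2 by 0.02, 1.72 and 1.10 on the log2(TPM + 1) scale, a mean of 0.95 ± 0.86 (SD, n = 3). The difference was in 1 direction in 3 of 3 libraries but nearly absent in replicate 1, and its exact two-sided sign-flip p of 0.25 is the smallest that 3 libraries allow (adjusted p = 0.75 over 9 pairs of genes compared). The other 5 Kv1 genes were low. Kcna5 and Kcna7 had no read, and Kcna3, Kcna4 and Kcna10 stayed under 1 TPM in every library. Of the exon bases of Kcna6, 39.6% also lie in exons of an antisense gene, Gm26673, which had no read. The strand setting of the counting is not given, and the effect of the shared bases on the level of Kcna6 was not tested.

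Of the other voltage-gated genes, Kcnh8 was the highest. Kcnh8 (ENSMUSG00000035580.10, chr17:52602709-52979194), an ELK channel that opens near the resting potential, was at 43.4, 28.6 and 131 TPM. Its level was highest in replicate 3, 4.58 times the lowest library, and lay 4.80 ± 0.53 (SE) above the tested value (limma, adjusted p = 0.0210).

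The rest of the EAG, ERG and ELK family and the Kv7 family reached 1 TPM only in single libraries. Kcnh2, the ERG channel that repolarises the heart, had no read in replicate 1, 5.83 TPM in replicate 2 and 0.970 TPM in replicate 3. Kcnh7, another ERG channel, was at 0.109, 0.699 and 2.04 TPM. Kcnq5, a channel of the M-current, was at 1.18, 0.0635 and 0.829 TPM. Kcnq3, which carries M-current in sympathetic neurons, stayed under 1 TPM, at 0.0616, 0.116 and 0.0658 TPM.

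Fast voltage-gated families were close to the limit of detection. Of the 3 Kv4 genes, which carry A-type currents, Kcnd3 was the highest with 11, 0 and 6 reads, and all 3 stayed under 1 TPM. Of the Kv3 genes, which serve fast firing, the highest, Kcnc4, had 3 reads, all in replicate 3. Another 10 genes encode silent subunits, which form no channel alone but join Kv2 subunits. None of them was called above 1 TPM (limma, and none at an unadjusted p under 0.05), beside 16.2% of all genes tested. Of the 10, 5 were called below, beside 13.6% of all genes tested, and 2 had no read. The silent subunit Kcng2 had 1, 200 and 1 reads, which is 26.2 TPM in replicate 2. Kcns3 had 1, 71 and 2 reads, which is 8.80 TPM in the same library. Kcnf1 had 1 read in all, and Kcnv2 had 5, 0 and 2.

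Of 15 inward rectifier genes, 3 were high and the other 12 were at 1.32 TPM or less in every library. Kcnj13 (ENSMUSG00000079436.3, chr1:87386363-87394729), a weakly rectifying channel known from ion-moving epithelia such as the choroid plexus, was at 131, 272 and 332 TPM. With a mean of 245 ± 103 TPM (SD, n = 3) it had the highest mean of all 92 genes, and it lay 6.84 ± 0.36 (SE) above the tested value (limma, adjusted p = 0.00493). Kcnj13 lies wholly within Gigyf2, a gene on the opposite strand, and 49.1% of its exon bases are also Gigyf2 exon. Gigyf2 stood at 58.8, 11.5 and 23.8 TPM in replicates 1, 2 and 3. Reads of the shared bases cannot be told apart in these values, and their part in the level of Kcnj13 was not tested.

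Kcnj10 and Kcnj16 encode subunits that assemble into 1 glial and epithelial channel. Kcnj10 (ENSMUSG00000044708.5, chr1:172341210-172374085), the main potassium uptake channel of glia, was at 56.6, 289 and 17.9 TPM. Replicate 2 was 16.1 times replicate 3, the widest range of the 9 genes called above. Kcnj16 (ENSMUSG00000051497.15, chr11:110968033-111027968), which makes no current alone, was at 28.8, 323 and 284 TPM. Its low library was replicate 1, 11.2 times under replicate 2. Kcnj10 lay 5.09 ± 0.92 (SE) and Kcnj16 6.13 ± 0.90 above the tested value (limma, adjusted p = 0.0487 and 0.0403). Of 11 alternative settings, Kcnj10 missed the threshold under 6 and Kcnj16 under 5.

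The 2 partner genes did not keep a constant ratio. Kcnj10 minus Kcnj16 on the log2(TPM + 1) scale was 0.95 in replicate 1, -0.16 in replicate 2 and -3.91 in replicate 3. The mean difference of -1.04 ± 2.55 (SD, n = 3) was smaller than its spread (exact two-sided sign-flip p = 0.75, adjusted 0.75), and it was 0.40 without replicate 3. From the marker list, 2 myelin and glial genes, named here after their values were seen, were also highest in replicate 2: Sox10 at 26.7, 165 and 51.6 TPM and Mbp at 12.4, 106 and 29.4 TPM. The glial list as a whole was not highest there, and no glial marker was without a read in any library. The part of these cells in the spread of Kcnj10 was not tested.

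The other inward rectifiers were near 0. Kcnj1, an epithelial channel of the kidney, had 11, 1 and 1 reads and reached 1.32 TPM in replicate 1. Kcnj4 and Kcnj5 had no read. Kcnj8, the pore of the vascular ATP-sensitive channel, had 0, 0 and 2 reads, whereas Abcc9, the sulphonylurea receptor that pairs with it, was at 21.1, 14.9 and 30.6 TPM. Kcnj8 lay below Abcc9 by a mean of -4.29 ± 0.32 (SD, n = 3) on the log2(TPM + 1) scale. This was the largest mean difference of the 9 pairs compared and held in 3 of 3 libraries (exact sign-flip p = 0.25, the smallest possible, adjusted 0.75). With Kcnj8 this near 0, its size depends on the added 1 TPM: with 0.5 TPM added instead it was -5.11. Kcnj11, the pore of the pancreatic and neuronal ATP-sensitive channel, had 2, 0 and 1 reads, and its receptor partner Abcc8 had 0, 0 and 3.

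The annotation places 17 pairs of potassium channel genes within 300 kb of each other. Both genes were at 1 TPM or more in every library in 1 pair, 1 of the genes was in 6 pairs, and neither was in 10. Pairs with such a gene lie in the 4 clusters described here, which were picked for it. On chromosome 6, Kcna1 and Kcna6 lie 61.9 kb apart and both exceeded 101 TPM in every library, while Kcna5, 105 kb from Kcna1, had no read; 3 reads there would be 0.410 to 0.438 TPM. On chromosome 3, Kcna2 lies 63.1 kb from Kcna3, with 2, 0 and 1 reads, and 68.1 kb from Kcna10, with 0, 1 and 1 reads. On chromosome 11, Kcnj2, a strong inward rectifier with 0, 3 and 2 reads, lies 38.2 kb from Kcnj16. On chromosome 1, Kcnj9, a G-protein-gated subunit with 0, 0 and 2 reads, lies 11.9 kb from Kcnj10.

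**Figure D2:**
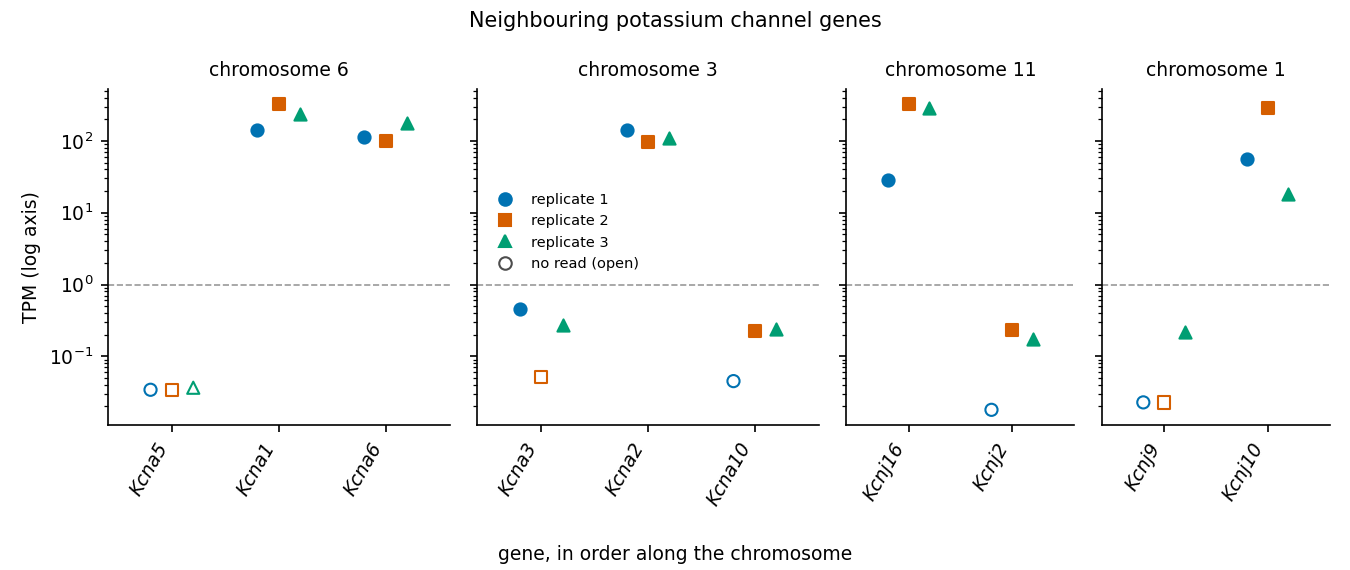
TPM on a log axis of the potassium channel genes in the 4 clusters that hold a gene at 1 TPM or more in every library, on chromosomes 6, 3, 11 and 1, in chromosome order, with 1 point per library and a dashed line at 1 TPM. Kcna1, Kcna6, Kcna2, Kcnj16 and Kcnj10 lie at 17.9 TPM or more in every library, and their neighbours stay under 1 TPM, with open symbols for libraries without a read.

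Two-pore genes had no member at 1 TPM in every library. None of 14 was called above (limma, and none at an unadjusted p under 0.05), beside 16.2% of all genes tested. Of the 14, 3 were called below, beside 13.6% of all genes tested, and 2 had no read. Kcnk13 (ENSMUSG00000045404.16, chr12:99964499-100062682), a background channel known from microglia, was at 78.5 and 5.05 TPM in replicates 1 and 2 and had no read in replicate 3, where 3 reads would be 0.403 TPM. Kcnk3 (ENSMUSG00000049265.7, chr5:30588170-30625271), an acid-sensitive background channel, was at 25.9 and 0.516 TPM and also had no read in replicate 3, where 3 reads would be 0.315 TPM. Both thus had most of their reads in replicate 1, with 624, 40 and 0 reads for Kcnk13 and 263, 5 and 0 for Kcnk3. Kcnk6 had 23 reads in replicate 1, which is 2.19 TPM, and 0 in the others. Of the mechanically gated channel genes, Kcnk2 had no read, and Kcnk4 and Kcnk10 stayed under 1 TPM in every library. Kcnk1 also had no read. The summed level of the class was therefore 108 TPM in replicate 1 against 8.29 and 2.42 TPM in replicates 2 and 3, and its mean of 39.4 TPM fell to 5.36 TPM without replicate 1.

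Calcium-activated genes were led by 2 members of the small- and intermediate-conductance family. Kcnn2, the small-conductance channel of many neurons, was at 26.5, 22.8 and 108 TPM, highest in replicate 3. It lay 4.37 ± 0.57 (SE) above the tested value (limma, adjusted p = 0.0312). Kcnn4 (ENSMUSG00000054342.8, chr7:24370263-24386690), the intermediate-conductance channel of blood cells and epithelia, was at 30.5, 3.38 and 36.0 TPM. Replicate 2 stood 10.6 times below the highest library, and the test was not passed (limma, adjusted p = 0.0657). Kcnn1 and Kcnn3, the other small-conductance genes, stayed under 1 TPM in every library.

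Large-conductance channels and their relatives were low. Kcnma1, the pore of the BK channel of smooth muscle and neurons, had 3, 31 and 9 reads and at most 0.719 TPM. Kcnu1, the sperm channel, had 0, 1 and 3 reads. Kcnt1 and Kcnt2 belong to the same structural family but are sodium-activated. Kcnt2 was at 1.72 and 21.2 TPM in replicates 1 and 2 and had no read in replicate 3, while Kcnt1 had 3, 6 and 5 reads. An antisense gene, 4930590L20Rik, covers 1.48% of the Kcnt2 exon bases and was at 25.9 TPM in replicate 3, with no read in the other libraries.

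Of 15 auxiliary genes, 1 was called above (16.2% of all genes tested were) and 6 below (13.6% were), and 2 had no read. Kcnip3 (ENSMUSG00000079056.12, chr2:127456498-127522094), a calcium-binding protein that joins Kv4 channels and also binds DNA, was at 12.7, 19.3 and 43.2 TPM. It lay 3.53 ± 0.42 (SE) above the tested value (limma, adjusted p = 0.0248), while its pore partners Kcnd1, Kcnd2 and Kcnd3 stayed under 1 TPM in every library. Kcnip4, of the same family, reached 1.18 TPM in replicate 3. Kcnab1, a cytoplasmic beta subunit of Kv1 channels, had 3, 12 and 210 reads, which is 10.2 TPM in replicate 3. The other 2 Kv1 beta genes, Kcnab2 and Kcnab3, had at most 1 read in a library. Kcnmb4, the BK beta subunit of neurons, was at 4.39, 6.02 and 0.157 TPM. Its mean exceeded that of the BK pore gene Kcnma1, and Kcnma1 minus Kcnmb4 was -1.42 ± 1.31 (SD, n = 3) on the log2(TPM + 1) scale, lower in 2 of 3 libraries (exact sign-flip p = 0.5, adjusted 0.75). Kcne4, a single-span subunit that dampens Kv1 and Kv7 currents, was at 6.22 and 0.331 TPM with no read in replicate 3. Kcne1 and Kcne2 had no read.

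Of 17 further genes that bind or anchor potassium channels, 4 were called above 1 TPM (16.2% of all genes tested were), 7 below (13.6% were) and 2 had no read. Those above are Abcc9 at 22.2 ± 7.93 TPM (SD, n = 3; limma, adjusted p = 0.0102), Dlg1, a scaffold of the synapse and of cell junctions, at 70.5 ± 18.2 TPM (limma, adjusted p = 0.00395), Dag1, the dystroglycan that links matrix to the cytoskeleton, at 85.4 ± 37.8 TPM (limma, adjusted p = 0.00656), and Ank3, the ankyrin that anchors channels at nodes, at 49.2 ± 12.0 TPM (limma, adjusted p = 0.00427). Cntn2 and Cntnap2, which hold Kv1 channels beside the nodes of myelinated axons, had at most 2 reads in a library.

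Voltage-gated genes and inward rectifiers carried most of the summed level. The 40 voltage-gated genes summed to 448, 603 and 689 TPM and the 15 inward rectifiers to 218, 885 and 635 TPM. Their means were alike, 580 ± 122 and 580 ± 337 TPM (SD, n = 3), but the inward rectifiers varied more, and the voltage-gated genes were the higher class in replicates 1 and 3. Calcium-activated genes summed to 84.2 ± 52.7 TPM and auxiliary genes to 36.0 ± 17.2 TPM. Kcnj10, Kcnj13 and Kcnj16 alone made 41.0% ± 15.5 of the summed level of all 92 genes, which was 857, 1573 and 1528 TPM.

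**Figure D3:**
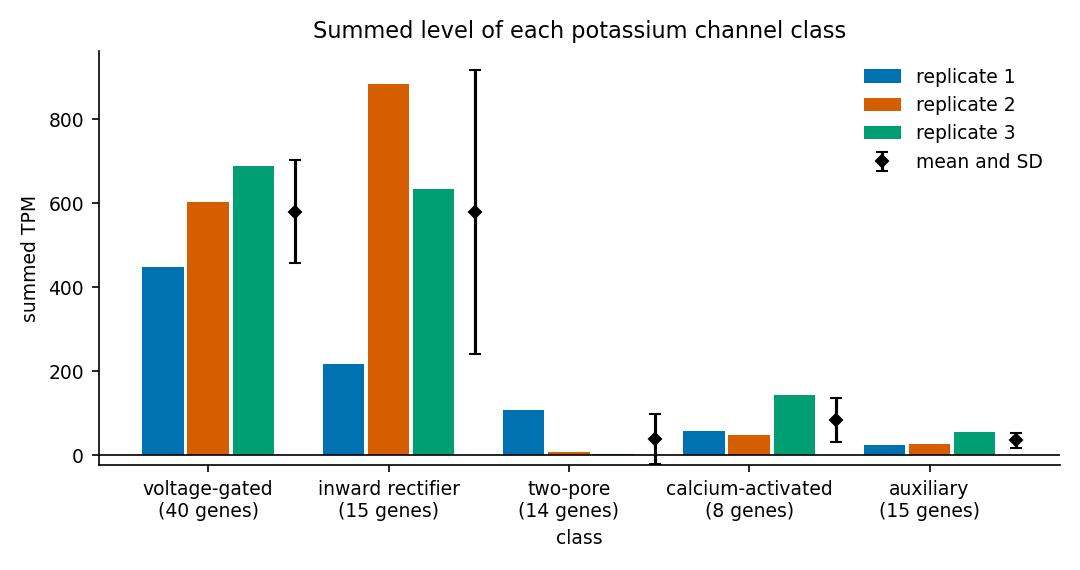
Summed TPM of each potassium channel class in the 3 libraries (bars, from 0) with the mean and SD beside them. Voltage-gated and inward rectifier genes each average 580 TPM, and the bar of 108 TPM in replicate 1 holds nearly all of the two-pore signal.

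The order of the 11 genes at 1 TPM or more everywhere was only partly fixed. Ranked by mean log2(TPM + 1) the first were Kcnj13, Kcna1, Kcnj16, Kcna6, Kcna2, Kcnj10, Kcnh8, Kcnn2, Kcnip3 and Kcnn4. Of the 10 neighbouring pairs in the full order, 2 differed by more than 1 SD of their difference over libraries, Kcnh8 over Kcnn2 by 0.43 ± 0.23 and Kcnn2 over Kcnip3 by 0.84 ± 0.55 (SD, n = 3). Kcna1 was the highest gene in replicates 1 and 2 and Kcnj13 in replicate 3, and Kcnj10 ranged from the third place in replicate 2 to the last in replicate 3.

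Over all members the typical level was low. The median of mean log2(TPM + 1) was 0.23 over the 81 genes with a read, beside 0.89 over all 27396 genes with a read and 1.66 over the protein-coding ones. Among genes with a mean of 5 TPM or more, the median SD between libraries on the log2 scale was 1.49 for 15 potassium channel genes and 1.72 for all 10128.

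**Figure D4:**
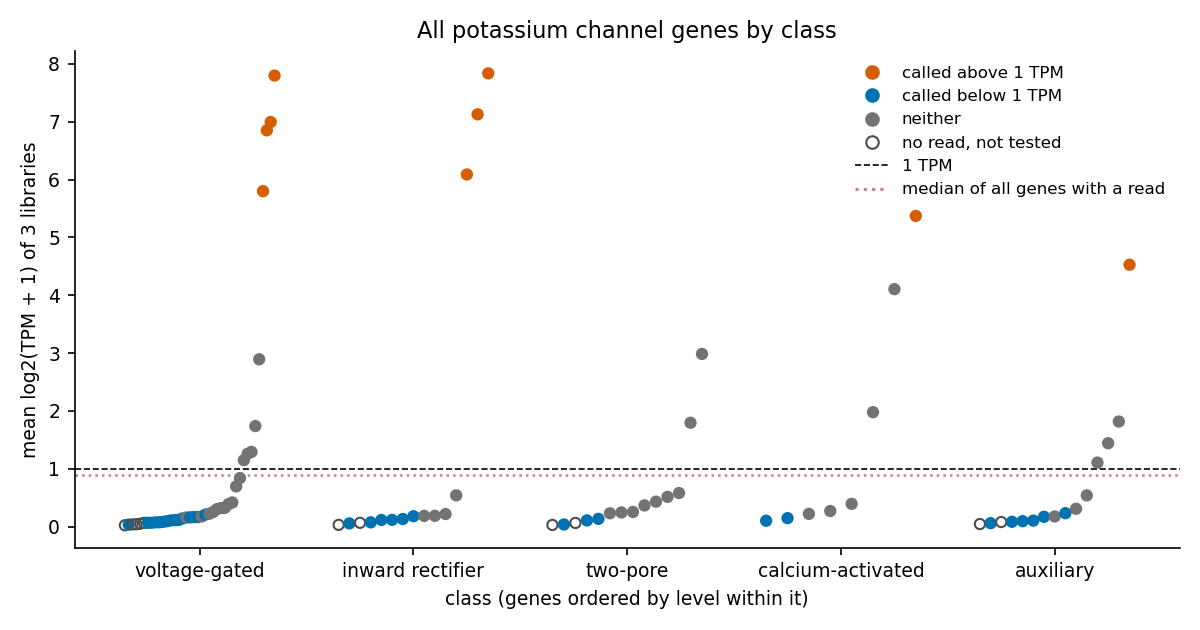
Mean log2(TPM + 1) of the 3 libraries for all 92 potassium channel genes, ordered by level within each class, with lines at the value of 1 TPM and at the median of all genes with a read. The 9 genes called above 1 TPM lie in 4 classes, the two-pore class has none, and most genes of every class lie under the dashed line.

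Of the 16 genes that reached 10 TPM in a library, 5 were under 1 TPM in another (31.2%), beside 41% of all 10407 genes that reached 10 TPM. They are Kcnk13, Kcnk3, Kcng2, Kcnt2 and Kcnab1. Kcnk13 and Kcnk3 were highest in replicate 1, Kcng2 and Kcnt2 in replicate 2, and Kcnab1 in replicate 3. Among the marker lists, the sums of glial and mural genes were highest in replicate 1, those of perineurial, endothelial and neuronal genes in replicate 2, and those of fibroblast and macrophage genes in replicate 3. Of the 10 mural genes 2, 1 and 2 were at 0 reads, and of the 10 macrophage genes 3, 4 and 3. The part of these cell types in the 5 uneven genes was not tested.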

How the data were processed

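The authors deposited log2 TPM for 3 Smart-Seq2 libraries, and each column sums to 1000000 TPM on the linear scale. The submitters' processing notes list STAR, featureCounts and mm10 (GRCm38). What they do not list (versions, strand setting, annotation release, the TPM formula) is not given in the sources consulted. The values show that 0.25 read was added to each gene, so whole reads were recovered with union exon lengths of GENCODE M21. Of the 92 members, 77 matched by versioned ID and 3 by another version (tolerance 0.02 read). For 12, Kcnn2 among them, the shortest length that gave whole reads was used (0.002 read), so their read numbers are the least that the values allow. A library without a read is printed as such, and 3 reads serve as the floor. Without molecular identifiers reads can be PCR copies, so floors cover counting error only.

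Mean log2(TPM + 1) was tested two-sided against 1 TPM with limma 3.58.1 (R 4.3.3, no trend, prior degrees of freedom 1.20) over the 27396 genes with at least 1 read, with Benjamini-Hochberg adjustment at 0.05. The added 1 TPM shrinks the differences of low genes. The script was tested on simulated data. Partner subunits were compared within libraries by exact sign-flip tests. 9 of 11 listed pairs had a read in both genes. Adjusted p-values measure only the spread between these libraries. Alternatives were another pseudocount, filter, level or prior, TPM without mitochondrially encoded genes, each library left out and, added after seeing the data, 10 reads in every library. Members named with values were those called above 1 TPM, those at 10 TPM in a library and the highest of each class and symbol family. Some members that meet the rule are not reported here. A few others were named after their values were seen. The members, classes, marker lists and pairs were chosen with earlier results of these data known. The rest used Python 3.11.15 (pandas 2.3.3, numpy 2.4.6, biopython 1.88, scipy 1.17.1, matplotlib 3.10.9). Sequences came from M21 transcripts, and their GRCm38 positions from the coding exons of M21. Gene spans are those of M21.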

Additional observations from a re-analysis of the deposited data

How the results depend on the processing

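The count of members at 1 TPM or more in every library was 11 with levels of 0.5 and 2 TPM, with TPM without mitochondrially encoded genes and with at least 10 reads. It was 11 to 14 with a library left out, where it cannot fall. Members above 1 TPM by limma numbered 9, 6 with a pseudocount of 2, 6 with a mean of at least 0.5 TPM, 8 against 0.5 TPM, 10 with limma-trend and 0 to 4 with a library left out, where fewer libraries were tested. Of all genes tested, 11.8%, 15.7%, 15.4% and 20.4% lay above under these alternatives in turn, and 0% to 8.89% with a library left out. Members below 1 TPM numbered 32. The count was 0 with a pseudocount of 2 (49 at an unadjusted p under 0.05), 0 with a mean of at least 0.5 TPM (0 unadjusted, 26 members tested), 0 against 0.5 TPM (10 unadjusted), 0 without mitochondrially encoded genes (42 unadjusted) and 0 to 29 with a library left out (42 to 46 unadjusted). It rose to 60 without a filter, 55 against 2 TPM and 53 with limma-trend. The cause was not tested. Among the named genes, calls above were lost in 30 combinations of gene and alternative, and Kcnn4 passed with limma-trend. The median member level was 0.23, 0.2862 without mitochondrially encoded genes and 0.1976 over all members. Some differences changed sign when a library was left out: Kcng2 against 1 TPM ran from -0.77 to 1.50, Kcnk3 from -0.68 to 1.68, Kcnt2 from -0.27 to 1.96 and Kcnab1 from -0.58 to 1.06, with -0.14 for Kcnab1 against 2 TPM. So did the pairs Kcnj10 minus Kcnj16 (-2.03 to 0.40), Kcnj11 minus Abcc8 (-0.0059 to 0.1565), Kcnma1 minus Kcnmb1 (-0.0222 to 0.2134), Kcnq1 minus Kcne3 (-0.0508 to 0.1508) and Kcnd3 minus Kcnip4 (-0.4725 to 0.032). No paired analysis was possible because there is no other group whose replicates could be matched; the within-library comparisons are between genes. Genes with few reads cannot be ranked at this depth.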
